A study of Mus musculus with 4 samples.

Results

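The 10 genes followed here across 4 mouse cell populations are commonly read as a fibroblast signature and encode no collagen: Fn1, Postn, Sparc, Fbn1, Dcn, Lum, Bgn, Pdgfrb, Thy1 and Fap. They were chosen by name, and every probe set that the platform annotation assigned to one of them was read on all 4 arrays. This gave 16 probe sets for 9 of the 10 genes, out of 18193 genes with a named probe set. Fbn1, a fibrillin gene, had no named probe set in the annotation used here and was not analysed here. The populations were mouse embryonic fibroblasts (MEF), neural stem cells derived from primary tissue (NSC), and neural stem cells induced with a set of 13 factors (iNSC_13F) or of 14 factors (iNSC_14F), with 1 array each. NSC and the induced cells grew on laminin in N2 medium supplemented with EGF and bFGF. The series concerns the reprogramming of adult liver cells and B lymphocytes, but the labels give neither the starting cell of each induced sample nor the identity of the factors, and they do not say whether a sample is 1 clone or a pool. The labels give no strain, age or sex. Since each group is a single array, no difference had a replicate check, none was tested, and precision is limited by that number.

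Fibroblasts build and anchor the interstitial matrix of connective tissue. Fibronectin, periostin, SPARC and the small leucine-rich proteoglycans decorin, lumican and biglycan are secreted into that matrix, where they bind collagen, growth factors and integrins. Thy1, the PDGF receptor beta and the protease Fap sit on the cell surface. None of these genes is exclusive to fibroblasts: SPARC is also made by glia, THY1 is abundant on mature neurons and on T cells, and PDGFRB marks pericytes.

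Values are MAS5 signals, a linear brightness of 1 probe set on 1 array. A signal was taken as measured above a floor of 103.91, the highest of the 4 arrays' 95th percentiles over 86 receptor probe sets (odorant, taste and vomeronasal), which these cells have little reason to express. Differences are log2 ratios with signals below the floor set to it, so a fold against an array below the floor is a lower bound, written "at least". A difference was called when it reached 4-fold and the higher of its signals exceeded the floor. Different probe sets bind with different strength, so signals are compared between arrays and never between genes. On bulk arrays, fewer cells of a type and less RNA per cell cannot be told apart.

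The arrays held markers of the labelled cells. Of 12 listed fibroblast markers, all 12 exceeded the floor on MEF, against 3 on NSC, 7 on iNSC_13F and 4 on iNSC_14F. On iNSC_13F Loxl1 (113), Col1a2 (116), Prrx1 (116) and S100a4 (123) were little above the floor. The rest of the 7 were Col3a1 (157), Col5a1 (543) and Twist1 (1241). Col1a2 was also little above it on iNSC_14F (115), against 51598 on MEF. Of the neural stem cell and radial glia markers, 10 had a probe set; all 10 exceeded the floor on NSC and on both induced arrays, and 4 did on MEF. Of the 6 pluripotent cell markers, 0 were above the floor on MEF and NSC and 1 (Esrrb) on each induced array, although the source label of all 4 samples names embryonic stem cells. Hepatocyte markers, 6 of which had a probe set, gave 0 above the floor on any array, and the 5 for B lymphocytes gave 1 (Ebf1), on all 4. Endothelial markers numbered 1 of 7 on MEF and iNSC_13F and 0 on the other arrays. Macrophage markers numbered 2 of 6 on MEF, 0 on NSC and 1 on each induced array. The hybridization controls, transcripts added to each sample, were 1.85-fold brighter on MEF, 2.11-fold on iNSC_13F and 1.86-fold on iNSC_14F than on NSC. With scaling to those controls, differences from NSC shift by up to 2.11-fold where the NSC signal is above the floor, while bounds against the floor move little or not at all.

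The secreted glycoproteins were bright in fibroblasts and differed in how much was left in the neural cells. Fn1 encodes fibronectin, the adhesive glycoprotein that cells assemble into fibrils through integrins. Its brighter probe set (1426642_at) had a signal of 39881 on MEF, 255 on NSC, 1954 on iNSC_13F and 3534 on iNSC_14F. All 4 values were above the floor, the MEF array stood highest and both induced arrays lay between MEF and NSC. Relative to MEF, Fn1 was 157-fold lower in NSC, and 20.4-fold and 11.3-fold lower in iNSC_13F and iNSC_14F. On the log2 scale the induced arrays had 40.3% and 52.1% of the distance from NSC to MEF. The other probe set (1437218_at) gave 2295 on MEF and 29.1, 49.0 and 56.7 on NSC, iNSC_13F and iNSC_14F. It therefore placed all 3 neural arrays at least 22.1-fold below MEF, a larger difference for iNSC_14F than the 11.3-fold of the brighter probe set, and it did not show Fn1 above the floor in induced cells.

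Postn encodes periostin, a matricellular protein of connective tissue that carries fasciclin domains. Its signal was 17423 on MEF, 2.21 on NSC, 13.0 on iNSC_13F and 7.65 on iNSC_14F. Only the MEF array was above the floor, so Postn was at least 168-fold lower on each of the others, and the order among those 3 has no meaning at signals this low.

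Sparc encodes a collagen-binding matricellular glycoprotein, also called osteonectin. Its brightest probe set (1416589_at) had a signal of 47389 on MEF, 3866 on NSC, 6792 on iNSC_13F and 7795 on iNSC_14F. Another probe set (1448392_at) gave 22010, 1332, 2381 and 2599 in the same order, so that both were above the floor on every array. By the brightest probe set Sparc was lower than in MEF by 12.3-fold in NSC, 6.98-fold in iNSC_13F and 6.08-fold in iNSC_14F. The corresponding values of 1448392_at were 16.5-fold, 9.24-fold and 8.47-fold. The remaining probe set (1458204_at) was near the floor, at 116 on MEF and 72.7 to 74.2 on the others.

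The small leucine-rich proteoglycans did not share one pattern in fibroblasts. Bgn, which encodes biglycan, was read by 3 probe sets, with signals of 35524, 37265 and 39133 on MEF. On NSC these were 3.93 to 8.70, on iNSC_13F 3.61 to 83.2 and on iNSC_14F 7.22 to 89.4. All 3 probe sets were thus above the floor on MEF alone, and Bgn was at least 377-fold lower on each of the other arrays by the brightest and at least 342-fold lower by the dimmest. Dcn, which encodes decorin, a proteoglycan that binds collagen fibrils and TGF-beta, was little above the floor in fibroblasts. Its signal (1449368_at) was 228 on MEF, 49.0 on NSC, 9.39 on iNSC_13F and 6.13 on iNSC_14F. The difference was at least 2.20-fold for each neural array, short of a call, and the other Dcn probe set (1441506_at) was below the floor on all arrays, at 2.76 to 14.0. Lum, which encodes lumican, was not above the floor on any array: 80.6 on MEF, 31.7 on NSC, 52.0 on iNSC_13F and 55.8 on iNSC_14F. Dcn and Lum are neighbours on mouse chromosome 10, in one cluster with the proteoglycan genes Kera and Epyc, and those 2 were also below the floor on all arrays, at no more than 7.88 and 55.5.

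Promoter windows are given for 3 members with a probe set, from the RefSeq-derived table used here (build GRCm38.p6): Postn, Sparc and Bgn. The search skipped the entries of a single chromosome, so a member located there may have a sequence that was not read. The 3 windows pair a gene that stayed measurable on all arrays (Sparc) with 2 that were above the floor in fibroblasts alone (Bgn and Postn). Each is the 250 bases before an annotated start, on the strand of the gene, 5′ to 3′. Capitals mark matches, on either strand, to 7 motifs, whose matches can overlap. The TATA box was searched as TATAAA. The GC box, a site of Sp family factors, was searched as GGGCGG, and the E-box, bound by basic helix-loop-helix factors, was searched as CANNTG. For the CACCC box and the CCAAT box the letters are those of the name. The motif of TEAD factors was searched as GGAATG, and the motif of AP-1, the dimer of Fos and Jun proteins, was searched as TGANTCA.
Sparc, chr11:55420081-55420330, minus strand: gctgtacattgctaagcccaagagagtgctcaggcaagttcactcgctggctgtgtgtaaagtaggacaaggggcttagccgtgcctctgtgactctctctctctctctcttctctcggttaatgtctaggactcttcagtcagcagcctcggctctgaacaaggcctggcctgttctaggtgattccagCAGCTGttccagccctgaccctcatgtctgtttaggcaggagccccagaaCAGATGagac
Bgn, chrX:73483351-73483600, plus strand: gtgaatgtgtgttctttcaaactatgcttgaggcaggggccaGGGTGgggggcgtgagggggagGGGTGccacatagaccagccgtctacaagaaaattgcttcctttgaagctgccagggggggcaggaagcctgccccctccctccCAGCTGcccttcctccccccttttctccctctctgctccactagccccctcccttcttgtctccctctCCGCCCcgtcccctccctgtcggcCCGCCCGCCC
Postn, chr3:54360857-54361106, plus strand: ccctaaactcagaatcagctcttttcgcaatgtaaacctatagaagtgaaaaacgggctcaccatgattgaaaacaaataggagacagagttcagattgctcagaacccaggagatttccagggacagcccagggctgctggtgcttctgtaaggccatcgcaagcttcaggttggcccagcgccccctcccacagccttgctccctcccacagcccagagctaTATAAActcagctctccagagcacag

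The 3 windows shared few of these letters. Bgn held 3 GC boxes within 34 bases of the start, 1 E-box and 2 CACCC boxes, with 64.4% G and C. Sparc held 2 E-boxes, 60 and 10 bases before the start, and 0 of the other motifs, with 54.0% G and C. Postn held a TATA box 26 bases before the second of its annotated starts and 0 of the other motifs, with 52.0% G and C, while the window before the first start held 1 CACCC box. Among all 32851 windows of this length 12.4% held the TATA box, 32.7% the GC box, 66.2% the E-box and 52.0% the CACCC box, and their median G and C content was 52.4%. The CCAAT box (33.8% of windows), the TEAD motif (12.6%) and the AP-1 motif (6.75%) were in none of the windows of these 3 genes. A match describes letters alone and shows no binding.

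The 3 surface genes were all above the floor on MEF. Thy1 encodes a small GPI-anchored protein of the immunoglobulin superfamily. Its one probe set gave 10813 on MEF, 41.2 on NSC, 472 on iNSC_13F and 171 on iNSC_14F. The NSC array was below the floor and the induced arrays were above it, iNSC_13F the higher. Thy1 was lower than in MEF by at least 104-fold in NSC, by 22.9-fold in iNSC_13F and by 63.4-fold in iNSC_14F.

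Pdgfrb encodes a receptor tyrosine kinase for PDGF-B and PDGF-D. The brighter of its probe sets (1436970_a_at) gave 13144 on MEF, 0.700 on NSC, 11.7 on iNSC_13F and 0.359 on iNSC_14F, and the other (1417148_at) gave 1332, 4.33, 10.3 and 6.50. Both were above the floor on MEF alone, and Pdgfrb was at least 126-fold lower elsewhere by the brighter and at least 12.8-fold lower by the other. PDGFRB also marks pericytes and smooth muscle, of whose 8 listed markers 7 were above the floor on MEF, 3 on NSC, 4 on iNSC_13F and 3 on iNSC_14F. The summed signal of that list was 60893 on MEF, against 1618, 1687 and 3225 on NSC, iNSC_13F and iNSC_14F. Single genes dominate these sums: Acta2 gave 56590 of the sum on MEF and Notch3 gave 2166 of the sum on iNSC_14F. Rgs5, a pericyte marker, was at 396 on MEF and below the floor on the others. Their part in the Pdgfrb difference was not tested.

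Fap encodes a membrane-bound prolyl protease of activated fibroblasts. Its signal was 486 on MEF, 19.4 on NSC, 55.8 on iNSC_13F and 33.7 on iNSC_14F, which is at least 4.68-fold lower on each neural array. The MEF signal is so near the floor that this bound cannot be much larger, and it was no longer a call with the floor at the 99th percentile of the receptor probe sets.

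**Figure D1:**
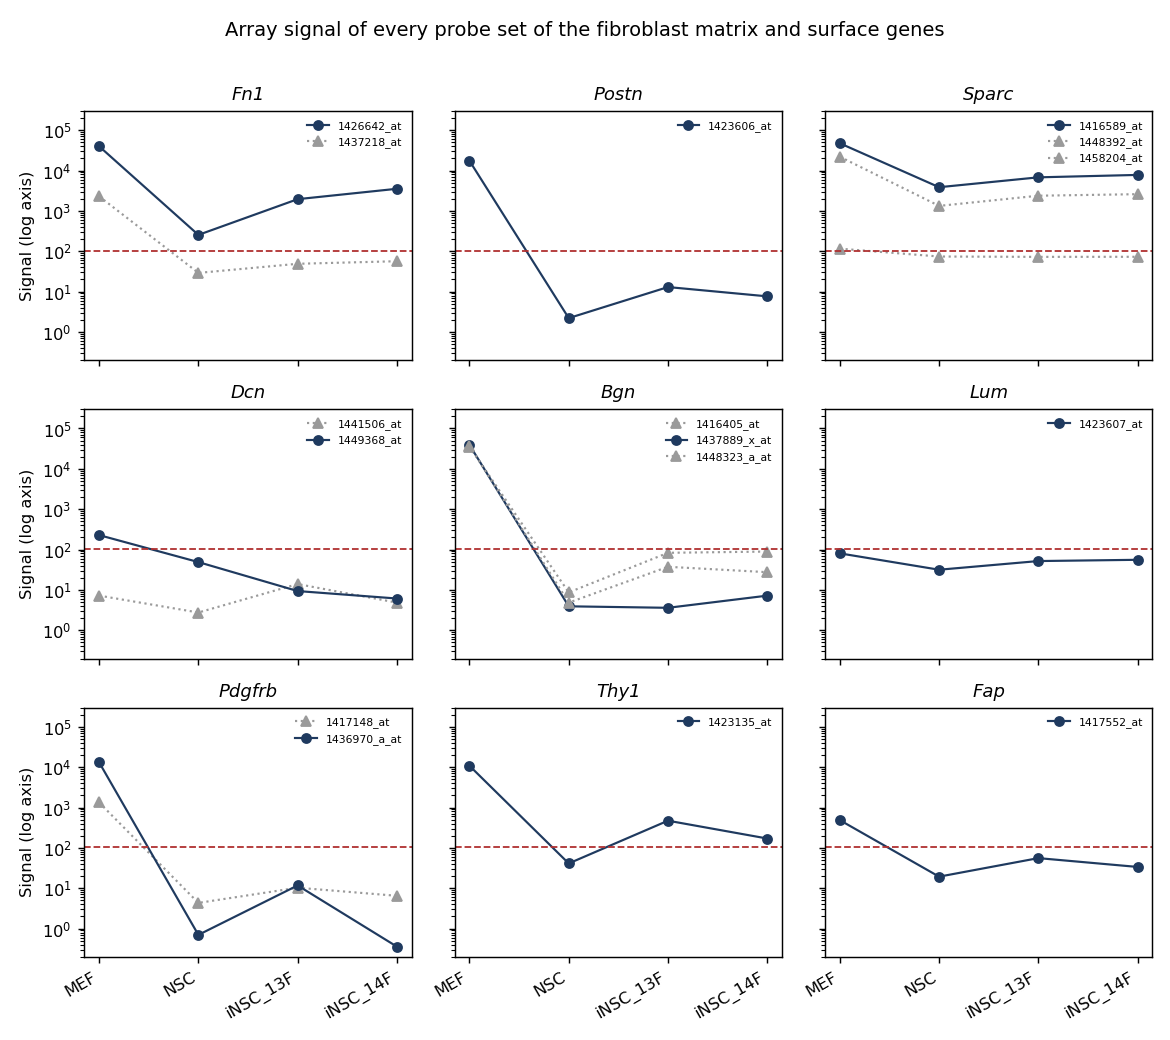
Signal (log axis) of each of the 16 probe sets of 9 genes on the MEF, NSC, iNSC_13F and iNSC_14F arrays; dark circles mark the probe set used for the gene, grey triangles the others, lines join the values of one probe set, and the dashed red line is the floor of 103.91. Every probe set above the floor on any array was highest on MEF, and Fn1, Sparc and Thy1 are the genes with an induced array above the floor.

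Of the 16 probe sets, 14 were above the floor on at least 1 array, and all 14 were highest on MEF. By gene, 8 of 9 were above the floor on MEF, 2 (Fn1 and Sparc) on NSC and 3 (Fn1, Sparc and Thy1) on each induced array. Of the 9 genes, 7 were at least 4-fold lower in NSC than in MEF, where 7.21% of the 11492 measured genes were lower and 6.09% higher. The same 7 were at least 4-fold lower in iNSC_13F (9.27% of 11770 genes lower, 3.66% higher) and in iNSC_14F (8.03% of 11572 genes lower, 4.49% higher), and 0 members were higher in any of these comparisons. These comparisons share the MEF array. Over all genes, the share of calls that were higher in NSC than in MEF was 45.8%, and 79.0% with scaling to the hybridization controls, under which 7 members were still lower. The median log2 difference of the 8 measured members was -6.84 for NSC, -4.43 for iNSC_13F and -4.74 for iNSC_14F, beside medians over all measured genes of -0.01, 0.09 and 0.10. Of the 8 differences, 6 are bounds for NSC and 5 for each induced array. The induced medians fall midway between Fn1 and Thy1, and the 5 members that are bounds there have the same value in NSC. The medians therefore do not show a smaller reduction of the whole list in induced cells. A member above the floor on MEF alone had to come out lower elsewhere, so these counts and medians describe the list and add no support to it. When both signals of a pair had to exceed the floor, 2 members (Fn1 and Sparc) could be compared for NSC and 3 for each induced array, and all of them were at least 4-fold lower.

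**Figure D2:**
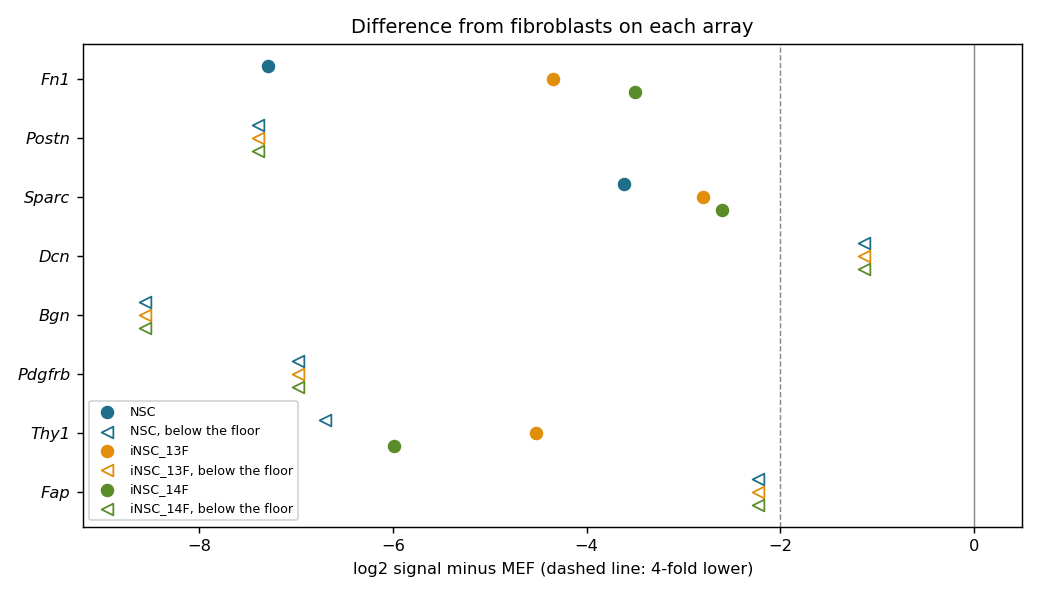
Log2 signal minus that of MEF for 8 genes (Lum, below the floor on all arrays, is left out) on the NSC, iNSC_13F and iNSC_14F arrays; open triangles are bounds, from an array below the floor, and the dashed line marks 4-fold lower. The 3 values of Postn, Bgn, Pdgfrb, Fap and Dcn coincide because all are bounds, while Fn1, Sparc and, on the induced arrays, Thy1 have measured differences.

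The 7 genes apart between NSC and MEF were then placed by their level on the induced arrays. On iNSC_13F, 5 of the 7 (Postn, Sparc, Fap, Pdgfrb and Bgn) were within 2-fold of NSC, against 68.2% of the 828 genes at least 4-fold higher in MEF than in NSC. On iNSC_14F, 5 of the 7 (Postn, Fap, Thy1, Pdgfrb and Bgn) were, against 66.8%. Of the members, 0 were within 2-fold of MEF on either array, against 87 and 83 of those 828 genes. Fn1 lay between the references on both induced arrays, Thy1 on iNSC_13F and Sparc, at 2.02-fold above NSC, on iNSC_14F. Postn, Fap, Pdgfrb and Bgn count as near NSC because both arrays were below the floor, which shows no more than that both were dim. Thy1 counts as near NSC on iNSC_14F by a bound alone. It was at least 1.64-fold above NSC, which was below the floor, so nearness to NSC is not shown. With the floor at the 75th percentile its log2 difference from NSC was 1.77.

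Against NSC, the induced arrays held more Fn1 by its brighter probe set and more Thy1, while the direction for Sparc depended on the scaling. The other Fn1 probe set was below the floor on NSC and both induced arrays. The Fn1 signal of iNSC_13F exceeded that of NSC by 7.68-fold and the signal of iNSC_14F by 13.9-fold. Thy1 exceeded NSC by at least 4.54-fold in iNSC_13F and by at least 1.64-fold in iNSC_14F. With the floor at the 99th percentile, Thy1 was below it on NSC and iNSC_14F, so that difference was not measured. Sparc was 1.76-fold and 2.02-fold higher, and this did not hold with scaling to the hybridization controls, where its log2 differences from NSC were -0.26 and 0.11. Under that scaling Fn1 stayed higher, with log2 differences of 1.87 and 2.90 in place of 2.94 and 3.80, and Thy1 had 2.00 and 0.71 in place of 2.18 and 0.72. Only these 3 members were measured against NSC, and the rest, below the floor on both arrays, could not be called. Of the 3, 2 (Fn1 and Thy1) were called higher in iNSC_13F, where 1.07% of 11180 measured genes were higher and 11.3% lower. In iNSC_14F 1 of the 3 (Fn1) was, where 1.42% of 10812 measured genes were higher and 9.4% lower. Of the measured members, 0 were called lower in either. Of all genes called in iNSC_14F, 13.2% were higher than in NSC, and 2.04% with the controls' scaling. With the controls' scaling 0 members were called in iNSC_13F and 1 in iNSC_14F. The summed signal of the 12 fibroblast markers was 1508 on NSC, 2678 on iNSC_13F and 1630 on iNSC_14F, against 183747 on MEF. Of the iNSC_13F sum, 1241 came from Twist1 alone, which was at 10.8 on NSC, so the sums do not rank these arrays. The part of fibroblast markers in these differences was not tested. The median of all genes was 0.30 and 0.33 above NSC, and -0.65 and -0.48 with that scaling.

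Between the induced arrays 3 members (Fn1, Sparc and Thy1) were measured, and the rest were below the floor on both. Of the 3, 0 differed 4-fold, where 0.842% of 10809 measured genes did (0.5% higher and 0.342% lower in iNSC_14F). Thy1 was 2.76-fold lower in iNSC_14F than in iNSC_13F, Fn1 was 1.81-fold higher and Sparc 1.15-fold higher. Among 9311 genes above the floor on both induced arrays 95% differed by less than 2.32-fold, a yardstick that holds real differences as well as noise. Thy1 lay outside that range, in its single probe set, and Fn1 and Sparc lay within it. The Thy1 log2 difference was -1.51 with quantile normalization and -1.29 with scaling to the controls, against -1.47.

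Sparc belongs to a family whose members went in opposite directions. Of 7 listed relatives, 5 were measured against MEF on each array. Sparcl1, also called hevin, a SPARC-like protein secreted by astrocytes, had a signal of 230 on MEF, 13233 on NSC, 2734 on iNSC_13F and 2082 on iNSC_14F. It was lowest where Sparc was highest, and 57.6-fold, 11.9-fold and 9.07-fold higher than in MEF. Smoc1, a calcium-binding SPARC-related protein that modulates BMP signalling, was also higher than in MEF, with 377 on MEF, 2040 on NSC, 3515 on iNSC_13F and 4971 on iNSC_14F. Its paralog Smoc2 went the other way, with 6138 on MEF and 6.56, 85.0 and 7.82 on the neural arrays, at least 59.1-fold lower. Fstl1, a secreted follistatin-like protein, had 25328 on MEF, 925 on NSC, 1201 on iNSC_13F and 1894 on iNSC_14F. The family thus had 2 genes at least 4-fold higher than in MEF and 2 lower on each of the 3 neural arrays. Over all measured genes, 7.21% were lower and 6.09% higher in NSC, 9.27% and 3.66% in iNSC_13F, and 8.03% and 4.49% in iNSC_14F. This list and those below were chosen with earlier results of these data known. A gene above the floor on MEF alone had to come out lower, so the counts describe the lists and add no support to them.

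Other proteoglycans of the leucine-rich family included genes above the floor on MEF alone, as Bgn was. Of 13 listed, 12 had a probe set and 6 were measured in NSC against MEF. Among these, 3 were at least 4-fold lower and 0 higher, beside 7.21% of all measured genes lower. Fmod (fibromodulin) had a signal of 6873 on MEF and was at least 66.1-fold lower on all 3 other arrays, and 6 of 6 Fmod probe sets were above the floor on MEF alone. Ogn (osteoglycin) had 2684 on MEF and was at least 25.8-fold lower, and Aspn (asporin) had 1637 and was at least 15.8-fold lower. The same 3 genes were called on both induced arrays. Podn was at 245 on MEF, 86.2 on NSC, 167 on iNSC_13F and 187 on iNSC_14F, and Prelp at 156, 35.2, 119 and 177, so these 2 differed little between MEF and the induced arrays.

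The elastic fibre and microfibril list, to which the fibrillin gene Fbn1 would belong, split into genes that were low on the neural arrays, as most members were, and genes whose induced levels were near MEF. Of 18 measured genes 12 were at least 4-fold lower in NSC than in MEF, 10 in iNSC_13F and 9 in iNSC_14F, with 0 higher. The shares of all measured genes that were lower were 7.21%, 9.27% and 8.03%. With scaling to the hybridization controls the list's counts were 10, 11 and 9. The list's medians were -2.99, -2.94 and -2.41 (log2). Lox, the enzyme that crosslinks collagen and elastin, had 18580 on MEF, 41.8 on NSC, 107 on iNSC_13F and 84.7 on iNSC_14F, so that its induced levels lay at or about the floor. Fbln5, a fibulin needed for elastic fibre assembly, was at least 129-fold lower on all 3 arrays. Fbln2, a fibulin, was instead at 19623 on MEF, 6030 on NSC, 15275 on iNSC_13F and 19533 on iNSC_14F. Both induced arrays were within 2-fold of MEF for Fbln2, and its other probe set (1438375_at) gave 451, 141, 881 and 738. The microfibril-bound Ltbp3, a latent TGF-beta binding protein, had 5049, 786, 3303 and 4399, and Fbln1 had 447, 465, 1557 and 1158, higher on the induced arrays than on either reference. The Fbln1 probe sets disagreed for iNSC_14F: 1422540_at gave 367, 145, 640 and 730, while 1439688_at gave 125, 49.0, 191 and 54.2, with iNSC_14F below the floor. Fbn2, the other fibrillin gene, had a like level everywhere, at 3367 on MEF, 2930 on NSC, 3671 on iNSC_13F and 3043 on iNSC_14F.

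**Figure D3:**
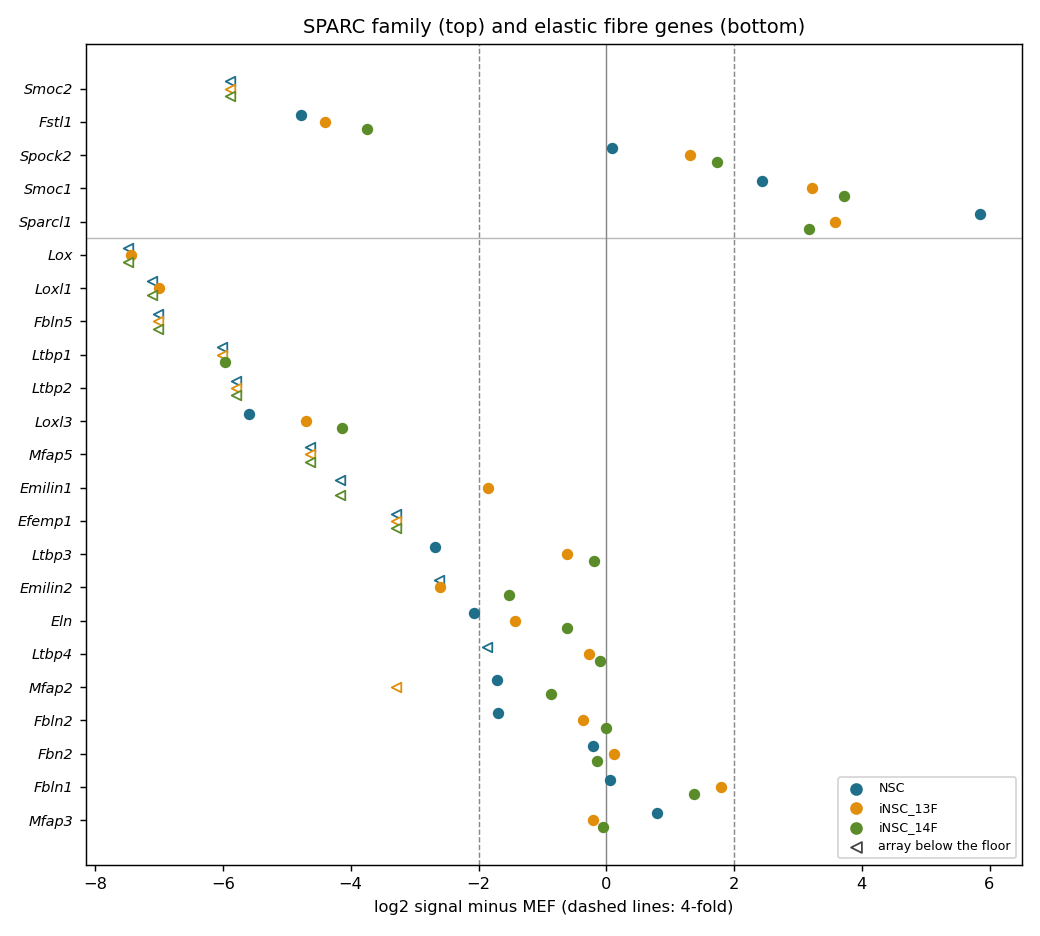
Log2 signal minus that of MEF on the NSC, iNSC_13F and iNSC_14F arrays for 5 measured SPARC family genes (top) and 18 elastic fibre and microfibril genes (bottom); open triangles mark an array below the floor, so that the value is a bound, and dashed lines mark 4-fold. Sparcl1 and Smoc1 lie to the right while Smoc2 and Fstl1 lie to the left, and for Fbln2, Ltbp3 and Ltbp4 the induced arrays lie near 0.

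Relatives and partners of fibronectin and periostin were mostly lower outside the fibroblasts. Of 17 genes, all measured, 11 were at least 4-fold lower in NSC than in MEF and 11 on each induced array, with 0 higher. All measured genes gave 7.21% lower in NSC, 9.27% in iNSC_13F and 8.03% in iNSC_14F. With scaling to the hybridization controls the list's count was 10 in NSC and 11 on each induced array. The list's median was -3.24 (log2) on all 3 arrays, because it falls on the floor bound of 1 gene, Ccn3, and 10, 5 and 9 of the 17 differences were bounds in NSC, iNSC_13F and iNSC_14F, so the equal medians do not show an equal reduction. The matricellular genes Ccn2, Thbs1 and Ccn1 differed between the induced arrays by their brightest probe sets. Ccn2, the connective tissue growth factor gene, had 48902 on MEF, 33.5 on NSC, 1070 on iNSC_13F and 24.0 on iNSC_14F. Thbs1, which encodes thrombospondin 1, had 27589, 51.3, 505 and 30.2, and Ccn1 had 23078, 94.5, 671 and 139. By these probe sets all 3 were above the floor on iNSC_13F and at or below 139 on iNSC_14F, and Thy1 was likewise the higher on iNSC_13F. Ccn2 was at least 10.3-fold, Thbs1 at least 4.86-fold and Ccn1 4.83-fold lower in iNSC_14F than in iNSC_13F. For Ccn1 this depends on the probe set: 1438133_a_at gave 255 on iNSC_13F and 149 on iNSC_14F, which is no call. For Thbs1 it does too: 1450377_at gave 186 on iNSC_13F and 13.5, below the floor, on iNSC_14F, a bound short of a call. Ccn2 had a single probe set. Tgfbi, a fasciclin-domain relative of periostin, had 3853 on MEF, 16.3 on NSC, 120 on iNSC_13F and 35.0 on iNSC_14F.

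Receptors and attachment proteins of fibronectin did not all follow the ligand. Itga5, the alpha subunit of the main fibronectin receptor, had 617 on MEF, 52.0 on NSC, 178 on iNSC_13F and 86.5 on iNSC_14F. Its dimmer probe sets 1423268_at, 1457561_at and 1458996_at gave 95.4, 107 and 153 on MEF. On iNSC_13F they gave 107, 77.1 and 11.5, so the Itga5 level there depends on the probe set. The partner subunit of Itga5, Itgb1, had 6571, 3398, 541 and 606, so that the induced arrays lay below both references. The other bright Itgb1 probe set (1452545_a_at) gave 3406, 2727, 384 and 818. Sdc4, a heparan sulphate proteoglycan that binds fibronectin, had 4291, 1750, 5807 and 4120, with both induced arrays above NSC. Tnc, which encodes tenascin-C, had 19327, 3851, 17911 and 13114 by its brighter probe set, but the other (1456344_at) gave 958, 208, 100 and 21.5, so its induced levels depend on the probe set.

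PDGF genes beside Pdgfrb were read as well. Of 6 genes, all measured, 3 were at least 4-fold lower in NSC than in MEF, 1 in iNSC_13F and 2 in iNSC_14F, with 0 higher. The shares of all measured genes that were lower were 7.21%, 9.27% and 8.03%. With scaling to the hybridization controls NSC had 1 lower (Pdgfrl) and 1 higher (Pdgfra), since Pdgfa and Pdgfc no longer reached 4-fold, and the counts of the induced arrays were 1 and 2 as before. Pdgfra, the other receptor gene and one that also marks oligodendrocyte progenitors, had 223 on MEF, 589 on NSC, 7.52 on iNSC_13F and 5.27 on iNSC_14F by its brightest probe set. The NSC array was the higher of the references there, unlike for Pdgfrb, and all 3 Pdgfra probe sets were below the floor on both induced arrays; 1438946_at gave 185 on MEF and 112 on NSC. The ligand gene Pdgfa had 2819, 554, 2125 and 1550, and Pdgfc had 8864, 1574, 2578 and 957. Pdgfb, whose product binds the beta receptor, was at 112 on MEF and below the floor elsewhere, and Pdgfd was at 366 on MEF and below the floor elsewhere.

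**Figure D4:**
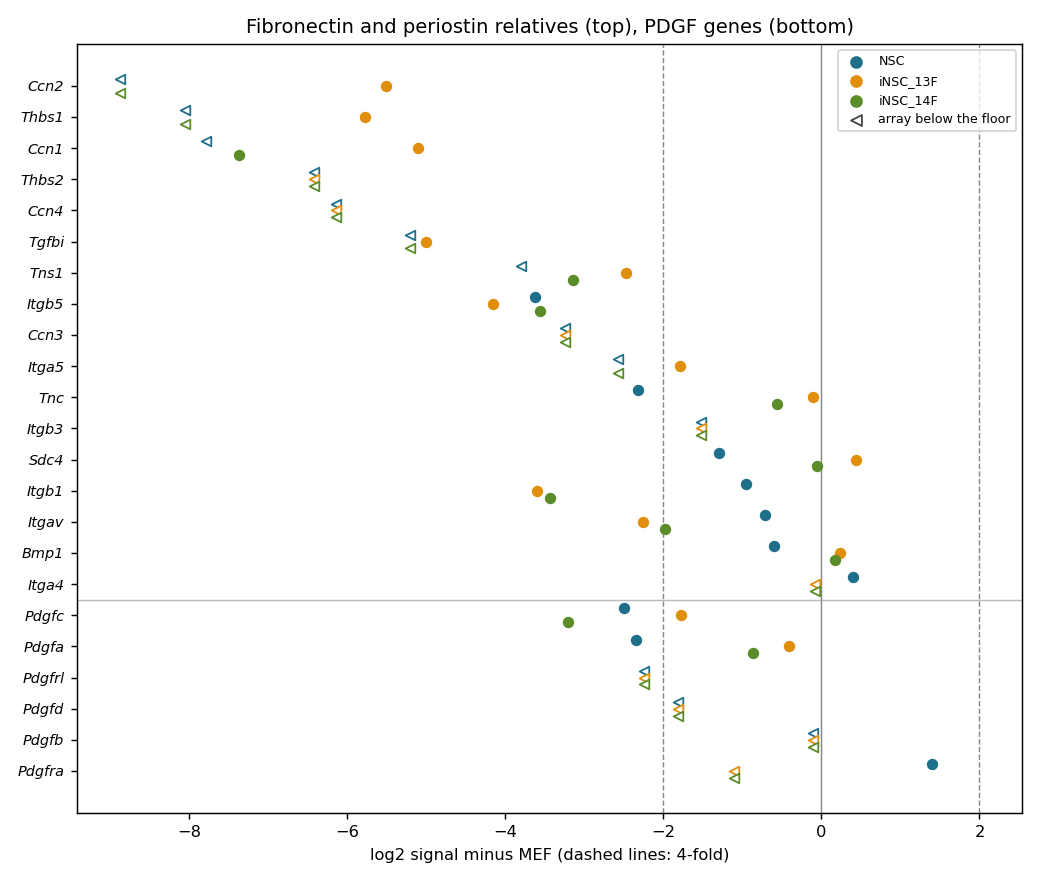
Log2 signal minus that of MEF on the NSC, iNSC_13F and iNSC_14F arrays for 17 relatives and partners of fibronectin and periostin (top) and 6 PDGF genes (bottom); open triangles mark an array below the floor, so that the value is a bound, and dashed lines mark 4-fold. Ccn2, Thbs1 and Ccn1 have a measured value on iNSC_13F to the right of the other arrays, and Itgb1 and Itgav lie lower on the induced arrays than on NSC.

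Other surface genes used to sort fibroblasts and mesenchymal cells gave 11 measured of 16 listed. Among these, 6 were at least 4-fold lower in NSC than in MEF, 5 in iNSC_13F and 5 in iNSC_14F, and 0 were higher. All measured genes gave 7.21%, 9.27% and 8.03% lower. With scaling to the hybridization controls the list's count in NSC was 3. Cd248, also called endosialin, had 4669 on MEF, 24.2 on NSC, 172 on iNSC_13F and 189 on iNSC_14F, with both induced arrays above the floor and NSC below it. Ddr2, a collagen receptor, had 1630, 125, 25.1 and 19.9. Pdpn (podoplanin) and Mrc2 (a collagen uptake receptor) were nearer to MEF in the induced cells than in NSC. Pdpn had 1086 on MEF, 189 on NSC, 1022 on iNSC_13F and 1512 on iNSC_14F, and Mrc2 had 2348, 226, 978 and 1237.

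Over these lists and those of proteases and GPI-anchored genes, 43 of 81 measured companion genes were at least 4-fold lower in NSC than in MEF. The share over all measured genes was 7.21%. The lists were chosen with earlier results of these data known. Of the 43, iNSC_13F had 31 within 2-fold of NSC and iNSC_14F had 33. Among all 828 genes at least 4-fold lower in NSC, the shares were 68.2% and 66.8%. Some companion genes, such as Fmod, Ogn and Aspn, exceeded the floor on MEF only, so their nearness to NSC means dim signals alone. Cd248 (24.2 on NSC, 172 on iNSC_13F and 189 on iNSC_14F) is counted by a bound, which does not show nearness. On both induced arrays, 4 (Ltbp3, Pdgfa, Pdpn and Tnc) were within 2-fold of MEF, which is 9.30% of the 43 beside 4.95% of all 828 genes. With scaling to the hybridization controls none of these 4 was 4-fold lower in NSC any more, and 0 of 35 companion genes, beside 2 of 533 of all genes, were within 2-fold of MEF on both. Tnc also counts here by its brighter probe set alone.

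The genes most like the members in pattern were sought over the 4 arrays among 10553 other genes above the floor on MEF. The measure was the Euclidean distance between log2 profiles, taken relative to MEF, and the median profile of the 8 members had -6.84 on NSC, -4.43 on iNSC_13F and -4.74 on iNSC_14F. Its values on the induced arrays rest on Fn1 and Thy1. The nearest 5 were Pmepa1, Plec, Cnn2, Tm4sf1 and Actn1, at distances of 0.69, 0.75, 0.85, 0.87 and 0.87. Pmepa1 had 9414 on MEF, 111 on NSC, 457 on iNSC_13F and 244 on iNSC_14F. For single members the nearest gene was Tm4sf1 for Thy1 (distance 0.62), Cnn2 for Fn1 (1.44) and Fhl1 for Sparc (0.28). Fn1 had the most distant nearest gene of the 8. For Postn it was Lox, for Pdgfrb Igf2 and for Bgn Tagln, at distances of 0.14, 0.04 and 0.48. For Dcn it was Krt7 and for Fap Fhdc1. The values of Postn, Pdgfrb, Bgn, Dcn and Fap on the neural arrays are bounds, so likeness to these 5 reflects the MEF signal and a dim signal elsewhere.

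Genes beside the members on the chromosome were read for comparison. Of 16 nearest named neighbours represented on the array, 8 exceeded the floor at least once, and 0 were at least 4-fold from MEF on any neural array. Over all measured genes the share was 13.3% in NSC, 12.9% in iNSC_13F and 12.5% in iNSC_14F. With 8 genes, a count of 0 cannot be told from these shares. Atic, next to Fn1, had 5521 on MEF, 2405 on NSC, 5772 on iNSC_13F and 5992 on iNSC_14F, and Atox1, next to Sparc, had 6492, 3624, 6026 and 5845. Haus7, next to Bgn, had 1184, 1133, 1237 and 1100.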

How the data were processed

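Total RNA of 4 samples was measured on 1-colour Affymetrix Mouse Genome 430 2.0 arrays. The deposited values are intensities, 1 per probe set and array, made by the authors with MAS5 per the submitters' processing notes (version not given in the sources used here). On every array the 2% trimmed mean was 500, and no other scaling was applied. MAS5 scales an array by 1 factor, so a difference that varies with brightness stays in the values.

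Of 45101 probe sets, 34945 were named by 1 gene through the platform annotation, 34741 of them matched by gene ID to the GRCm38.p6 gene table, and 932 held several genes and were not named. A gene took the probe set with the highest mean log2 signal after the floor. All 6 pairs of arrays were compared by the rule of size. The cell type labels put the samples into 4 groups of 1 array.

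The 10 genes and the companion and marker lists were chosen with earlier results of these data known. All 10 genes could be named, up to 4 genes of a companion list per comparison (the largest differences), the 5 genes nearest to the members' median profile and the nearest to each member, and the nearest neighbours on the chromosome. Fbn2, Pdgfb, Tgfbi, Dpp4, Prep, Epyc and the single genes of marker lists were named after their values were seen. Marker lists of astrocytes, neurons and meningeal fibroblasts are given in the closing section. Calling was tested on simulated data. Computation used Python 3.11.15, pandas 2.3.3 and numpy 2.4.6. Alternatives were quantile normalization, scaling to 18 hybridization control probe sets, floors at the 75th or 99th percentile or of each array, a pseudocount of 16 in place of a floor, the median over each gene's probe sets, removal of those whose suffix is _s_at, _x_at or _a_at, genes above the floor on both arrays and, added after the data were seen, the brightest probe set chosen before the floor.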

Additional observations from a re-analysis of the deposited data

How the results depend on the processing

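Of 308 member differences recomputed under 10 other settings, 1 of them added after the data were seen, 307 kept their sign (the exception is Sparc in iNSC_13F against NSC, given above) and 232 moved by under 1.5-fold. Bounds move with the floor by construction. A bound has a single array above the floor, which fixes its sign, so the count of kept signs is no check for bounds. For Postn, Bgn, Pdgfrb, Fap and Dcn every difference from MEF was a bound, with the same value on each neural array. The counts of called members against MEF were 7 of 9 and kept within 1.5 times of that, except over genes with both arrays above the floor, where fewer genes are compared (2 for NSC, 3 for iNSC_13F and 3 for iNSC_14F). Against NSC the count of 2 in iNSC_13F was 0 with scaling to hybridization controls and 1 with the 99th percentile floor, the median of the probe sets or genes with both arrays above the floor, and the count of 1 in iNSC_14F was 2 with the floor of each array. The median for NSC against MEF (-6.84) was -6.03 with the 99th percentile floor, -7.66 with the floor of each array, -5.45 over genes with both arrays above the floor, and -5.19 without _s_at, _x_at and _a_at probe sets or with the probe set chosen before the floor. That for iNSC_14F against MEF (-4.74) was -3.50 with the 75th percentile floor or over genes with both arrays above the floor, -5.33 with the median of the probe sets, and -3.59 without those suffixes or with the probe set chosen before the floor. That for iNSC_13F against NSC (2.18) was 0.77 and 1.37 with the 75th and 99th percentile floors, 2.86 with the pseudocount of 16 and 1.57 with the median of the probe sets. That for iNSC_14F against NSC (1.01) was 2.40 with the 99th percentile floor or over genes with both arrays above the floor and 1.71 with the pseudocount. Except where the construction shows it, the cause was not tested. No paired analysis was possible because each group has 1 array. Dcn, Lum and Fap were too near the floor for a large difference to be seen.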

Other observations

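Protease and inhibitor genes that act on the members' matrix were also read. Of 9 measured genes of the list of Fap relatives and matrix proteases, 5 were at least 4-fold lower in NSC than in MEF and 0 higher. The share of all measured genes that were lower was 7.21%. Timp1, an inhibitor of matrix metalloproteases, had a signal of 19167 on MEF, 460 on NSC, 1219 on iNSC_13F and 865 on iNSC_14F. Mmp14, a membrane-bound metalloprotease, had 12564, 813, 530 and 412. Dpp4, the closest relative of Fap and a surface protease of some fibroblasts, was below the floor on all arrays in all of its probe sets. The cytosolic relatives Dpp9 (950, 535, 997 and 1065) and Prep (2799, 1841, 3291 and 2699) were within 2-fold of MEF on the other arrays. Dpp8, of the same list, was not: 1428697_at gave 640, 858, 266 and 557, more than 2-fold below MEF on iNSC_13F.

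GPI-anchored and Ly6 genes beside Thy1 went in both directions. Ly6e was highest on MEF, as Thy1 was, with 1537 on MEF, 134 on NSC, 177 on iNSC_13F and 93.1 on iNSC_14F. Of 9 measured in NSC against MEF, 1 was at least 4-fold lower (Ly6e), 5 were at least 2-fold lower and 1 was at least 4-fold higher (Cntn1, a contactin of neural cells, with 18.8 on MEF, 1664 on NSC, 66.2 on iNSC_13F and 201 on iNSC_14F). All measured genes gave 7.21% lower and 6.09% higher in NSC. In iNSC_14F 1 of 9 was at least 4-fold lower (Ly6e), beside 8.03% of all measured genes. In iNSC_13F 2 of 8 were (Ly6e and Ncam1), beside 9.27%. For Ncam1 this depends on the probe set: 1426865_a_at gave 3711 on MEF and 758 on iNSC_13F. In the same order 1426864_a_at gave 2822 and 724, short of a call, and 1450437_a_at gave 378 and 525, the other direction. Prnp, the prion protein gene, had 15494, 5597, 6698 and 9761.

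Markers of other cell types were counted above the floor. Astrocyte markers numbered 2 of 6 on MEF and 4 of 6 on each of the other arrays. Neuron markers numbered 2 of 6 on MEF, NSC and iNSC_14F and 3 on iNSC_13F. Meningeal and perivascular fibroblast markers numbered 5 of 6 on MEF and 2 of 6 on each other array, namely Foxc1 and Zic1. Zic1 had 120 on MEF, 2630 on NSC, 2995 on iNSC_13F and 1155 on iNSC_14F, and the other markers of that list were below the floor on those 3 arrays. Their part in the members' differences was not tested.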
